A study of Homo sapiens with 12 samples.

Results

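The genes described here are 40 genes of the unfolded protein response and the integrated stress response, chosen by name from 48114 genes in the tables. They comprise 4 stress sensors, 6 transcription factors, 2 regulatory subunits of the eIF2α phosphatase, 11 amino acid and metabolic targets of ATF4, 13 chaperones and folding enzymes of the endoplasmic reticulum (ER) and 4 genes of ER-associated degradation. All 40 had a single row in the tables of both cell lines and all 40 passed the filter on low values (mean of at least 10), the lowest with a mean of 1006 normalized counts over the PANC-1 libraries.

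Gene expression was measured by polyA RNA sequencing in 12 libraries, 3 biological replicates in each of 4 groups. PANC-1 cells, a human pancreatic ductal adenocarcinoma (PDAC) line used as a model of basal-like tumors, received a control siRNA (siCtrl), an siRNA against QKI (siQKI) or an siRNA against RBFOX2 (siRBFOX2). The knockdown siRNAs were used at 40 nM, and RNA was collected after 48 h. HPAF-II cells, a PDAC line used as a model of classical tumors, received siCtrl and were harvested at that same time. QKI and RBFOX2 are RNA-binding proteins that regulate alternative splicing, and the comparisons ask which transcripts follow their depletion and how the lines differ. No group was treated with an ER stressor or starved of amino acids. Each group stems from a single line, and the control and QKI siRNAs were commercial pools of several sequences. In such bulk libraries a change in the share of cells that hold a transcript and a change per cell cannot be told apart.

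The unfolded protein response starts from 3 ER membrane sensors, IRE1 (ERN1), PERK (EIF2AK3) and ATF6, which react to unfolded protein in the ER lumen. PERK and the amino acid sensor GCN2 (EIF2AK4) both phosphorylate the translation factor eIF2α, which slows general translation while raising translation of ATF4; this shared branch is the integrated stress response. ATF6 is activated by cleavage, XBP1 mRNA by an unconventional splicing step made by IRE1, and ATF4 by translation, so the gene totals measured here show transcript abundance and not the activation of these factors. Secretory epithelia such as the exocrine pancreas depend on this system for their load of secreted protein.

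The control regions below are shown because their short motifs define the branches that the results follow. RefSeq promoter windows (GRCh38.p14, 250 bases before and 50 after a start site) matched 38 of the 40 genes by symbol, PDIA3 and PSPH being unmatched. The ER stress response element (CCAAT, 9 bases of any kind, CCACG, read on both strands) lay in windows of 7 of these 38 genes. These were HSPA5, HSP90B1, CALR, CANX, PDIA6, CRELD2 and XBP1. Of all 27305 genes with a window, 0.0916% held it. ERSE-II (ATTGG, 1 base, CCACG) lay in HERPUD1, HYOU1 and SDF2L1 and in 0.0696% of all genes with a window. The C/EBP-ATF response element, the site type of ATF4 (TGATG, 1 base, AA), was far more common, with 4.46% of all genes. It lay in ASNS, CHAC1, HERPUD1, PPP1R15B, SLC3A2 and CREB3L2. The core of the UPR element (TGACGTG) lay in 2.40% of all genes and in HYOU1 alone of the 38, where it overlapped an ERSE-II by sharing letters. A match describes letters in a window and does not show binding.

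Stretches of 120 bases upstream of the start site follow for 5 genes, with the motif in capitals and each read 5′ to 3′ on the strand of its gene. XBP1, SDF2L1 and ASNS were shown by the rule for named genes, and HSPA5 and CHAC1 were added after their values had been seen, as a major ER chaperone and a marker of the ATF4 branch. HSPA5 and XBP1 hold the ER stress response element, SDF2L1 the ERSE-II (reverse complement), ASNS the C/EBP-ATF element and CHAC1 its reverse complement.
HSPA5, chr9:125241344-125241463, minus strand: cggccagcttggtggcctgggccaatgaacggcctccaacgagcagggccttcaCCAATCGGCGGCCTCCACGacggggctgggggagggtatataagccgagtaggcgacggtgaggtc
XBP1, chr22:28800570-28800689, minus strand: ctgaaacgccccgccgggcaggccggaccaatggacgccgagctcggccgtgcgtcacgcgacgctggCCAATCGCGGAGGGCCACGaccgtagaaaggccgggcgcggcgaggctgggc
SDF2L1, chr22:21642059-21642178, plus strand: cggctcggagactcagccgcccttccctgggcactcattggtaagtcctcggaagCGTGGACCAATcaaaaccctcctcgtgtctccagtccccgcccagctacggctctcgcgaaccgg
ASNS, chr7:97872413-97872532, minus strand: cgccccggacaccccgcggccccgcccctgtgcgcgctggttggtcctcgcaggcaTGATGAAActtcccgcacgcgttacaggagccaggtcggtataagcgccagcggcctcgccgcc
CHAC1, chr15:40953221-40953340, plus strand: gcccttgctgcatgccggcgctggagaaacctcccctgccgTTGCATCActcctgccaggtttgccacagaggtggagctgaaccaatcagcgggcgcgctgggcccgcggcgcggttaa

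Several facts of the whole series bear on these genes. PANC-1 libraries totalled 321833858 to 348181159 normalized counts and those of HPAF-II cells 279777377 to 287232882, and the number of sequenced fragments behind them is unknown. QKI fell in siQKI libraries to 19.7% of its siCtrl mean (log2 fold change -2.34 ± 0.06 SE, adjusted p = 9.15e-13), and RBFOX2 fell in siRBFOX2 libraries to 13.6% (-2.89 ± 0.09, adjusted p = 4.70e-11). RBFOX2 also fell in siQKI libraries, to 81.9% of its siCtrl mean (adjusted p = 0.0207), so the siQKI group carried slightly less RBFOX2 transcript as well. All p-values of PANC-1 comparisons were from limma over all 22544 genes tested, with Benjamini-Hochberg adjustment, and a gene was called at an adjusted p under 0.05. Cell line markers were read from short lists. KRT8, KRT18 and KRT19 were abundant in both lines, VIM stood at 5312 to 5499 normalized counts per 1000000 of the library total (rescaled counts) in PANC-1 against 0.283 to 15.2 in HPAF-II, and EPCAM at 13.5 to 14.1 against 327 to 487. Of 4 classical markers, GATA6 and LGALS4 were higher in HPAF-II libraries, whereas TFF3 was listed at 0 in all HPAF-II libraries and TFF1 reached at most 0.791 rescaled counts. With siQKI, the epithelial cadherin CDH1 rose (1.39 ± 0.11, adjusted p = 1.54e-07), KRT18, VIM and ZEB1 fell and CDH2 rose. With siRBFOX2, CDH1 rose (0.53 ± 0.11, adjusted p = 0.00177), as did CDH2, and KRT8, KRT18 and KRT19 fell. The summed level of 5 epithelial markers was 2546 to 2639 rescaled counts in siCtrl, 2555 to 2711 in siQKI and 2128 to 2285 in siRBFOX2 libraries, and that of 4 mesenchymal markers was 5376 to 5567, 5138 to 5293 and 5492 to 5542. Of 9 markers of fibroblasts, endothelium and immune cells, 5 were below the filter in PANC-1 libraries (DCN, LUM, PECAM1, PTPRC and CD3E), COL1A1 rose and CD68 fell in both knockdowns, and their summed level was 156 to 180.2 rescaled counts in siCtrl, 139.7 to 144 in siQKI and 143 to 154 in siRBFOX2 libraries. The part of these markers in the results was not tested.

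After QKI knockdown, 24 of the 40 genes passed the test, 16 higher and 8 lower, and the largest fitted log2 fold change was 0.58, that of VLDLR. The serine synthesis enzymes PHGDH and PSPH and 7 of 13 ER chaperones were higher, whereas PSAT1, SESN2, EDEM1 and ATF6 were lower. This share, 60.0%, stood beside 33.0% of all genes tested (14.9% higher and 18.1% lower). Abundant genes pass more often. Of 12535 genes whose mean reached 500, as it did for all 40, 55.7% passed (23.1% higher and 32.6% lower). That share, over both directions, is near that of the 40. The median log2 fold change was 0.09 over the 40 genes and 0.03 over all genes. Without the mean-variance trend of limma only 15 of the 40 passed, 11 higher and 4 lower. With upper-quartile rescaling 26 passed, 21 higher and 5 lower, and among all genes the split turned from 3362 higher and 4070 lower to 4225 higher and 3057 lower.

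After RBFOX2 knockdown, 22 of the 40 genes passed, 16 higher and 6 lower. The ATF4 targets made up most of the rise, 9 of 11 being higher and 0 lower, and PHGDH rose and EDEM1 fell by more than 1.5-fold. The share of 55.0% stood beside 26.5% of all genes tested (12.0% higher and 14.5% lower) and beside 47.2% of genes with a mean of at least 500 (19.7% higher and 27.5% lower). The median log2 fold change was 0.13 over the 40 genes and 0.01 over all genes. Without the mean-variance trend 15 of the 40 passed.

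A single set of 3 siCtrl libraries served both knockdowns, whose separate folds therefore share an error, and the direct comparison of siQKI with siRBFOX2 libraries was used where they differ. In it, 20 of the 40 genes passed, 11 higher in siQKI and 9 lower (50.0%), beside 21.5% of all genes (9.93% higher and 11.6% lower) and 39.6% of genes with a mean of at least 500 (18.4% higher and 21.2% lower). The groups split by role: 7 of 11 ATF4 targets were lower in siQKI than in siRBFOX2 libraries and 1, SLC7A5, was higher, while 6 of 13 chaperones were higher and 0 lower. Of these chaperone calls, those of HSPA5, CANX and PDIA6 held in only 9, 8 and 9 of 17 alternatives. Without the mean-variance trend 13 of the 40 passed, with 6 ATF4 targets lower and 2 chaperones higher.

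**Figure D1:**
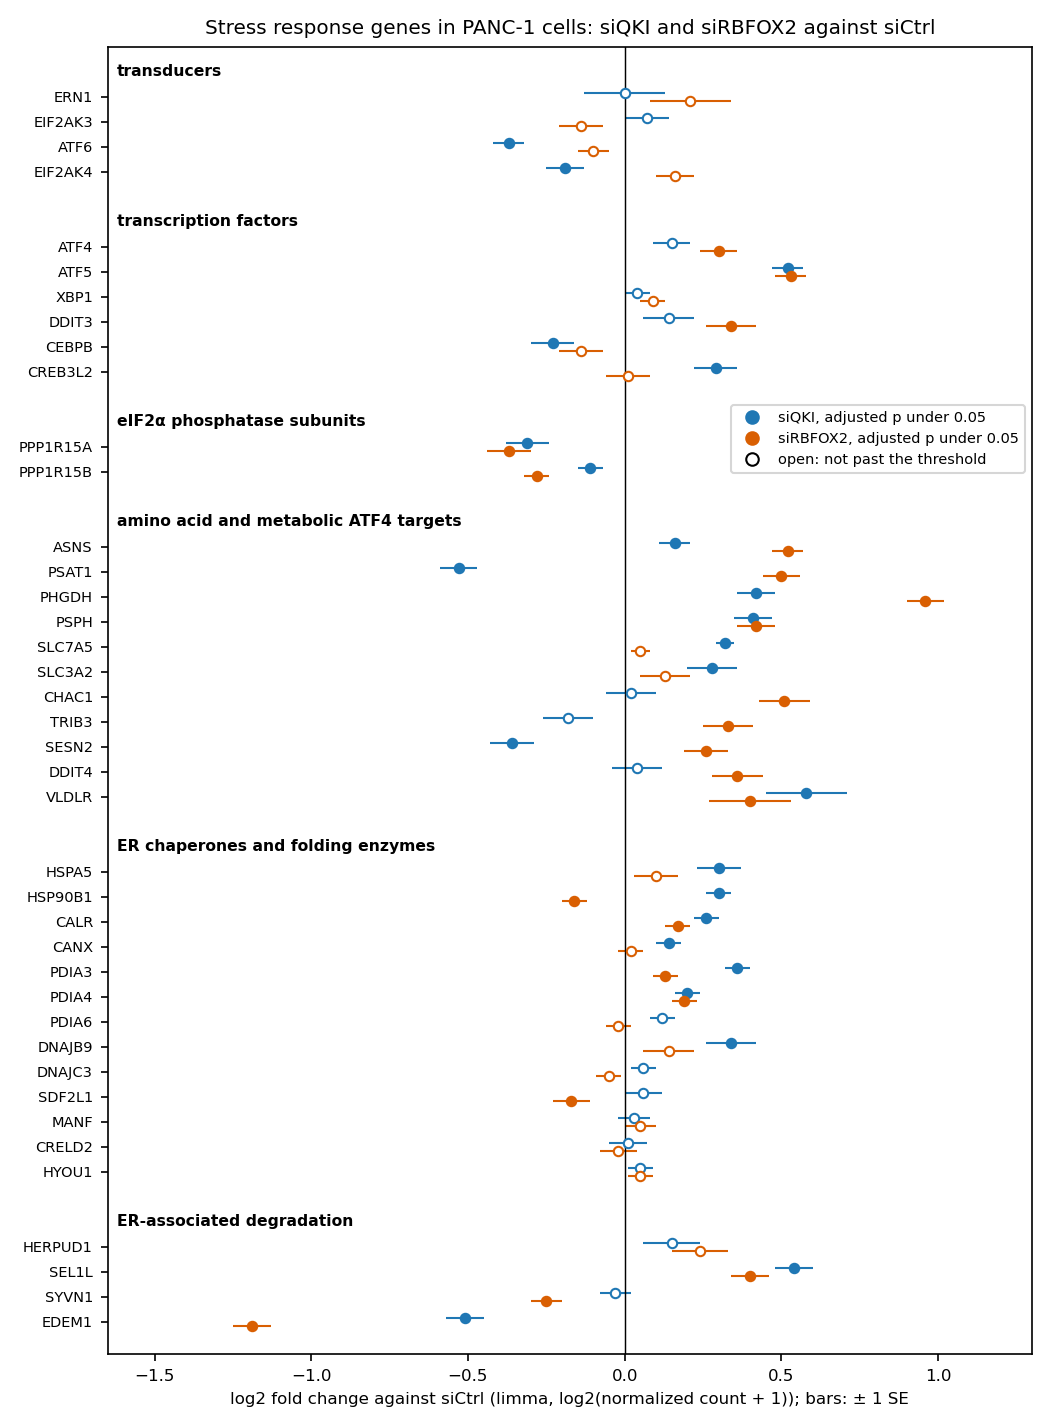
Log2 fold changes of the 40 genes against siCtrl in PANC-1 cells, by role, for siQKI (blue) and siRBFOX2 (orange), with bars of 1 standard error, n = 3 libraries per group. Filled points passed the adjusted threshold. The siRBFOX2 points of the ATF4 targets lie between 0.05 and 0.96, and the siQKI points of the same genes spread from -0.53 to 0.58.

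Among the stress sensors, transcript levels of ATF6 and EIF2AK4 fell with siQKI, and none of the 4 passed the test with siRBFOX2. ATF6, the ER membrane factor released by cleavage, had 10276, 11012 and 11537 normalized counts in siCtrl libraries, 8077, 8548 and 8798 in siQKI and 9964, 10504 and 10206 in siRBFOX2. All siQKI libraries lay below all others. The log2 fold change was -0.37 ± 0.05 with siQKI (adjusted p = 8.24e-05) and -0.27 ± 0.05 for siQKI against siRBFOX2 (adjusted p = 0.00191), and it passed in all 17 alternative fits read at the threshold of 0.05. EIF2AK4, the amino acid sensor GCN2, had 6243, 6273 and 5895 in siCtrl, 5094, 5555 and 5537 in siQKI and 6846, 6355 and 7340 in siRBFOX2 libraries. The siQKI libraries were the lowest and the siRBFOX2 libraries the highest, without overlap. The fall with siQKI was small (-0.19 ± 0.06, adjusted p = 0.0339) and was lost in 6 of 17 alternatives, among them those without siCtrl replicates 1 or 2 and without siQKI replicates 1 or 3, with adjusted p from 0.0220 to 0.159. The difference between the knockdowns was larger, at -0.34 ± 0.06 (adjusted p = 0.00103).

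ERN1, the sensor kinase and endonuclease IRE1, had 1101, 1295 and 1519 normalized counts in siCtrl, 1388, 1209 and 1286 in siQKI and 1395, 1740 and 1381 in siRBFOX2 libraries. These ranges overlapped in all comparisons (adjusted p = 0.994 with siQKI and 0.268 with siRBFOX2, with a standard error of 0.13). EIF2AK3, the kinase PERK, had 3130, 3172 and 3455 in siCtrl, 3364, 3543 and 3306 in siQKI and 2900, 2867 and 3116 in siRBFOX2 libraries. All siRBFOX2 libraries lay below the others, but neither that difference (-0.14 ± 0.07, adjusted p = 0.180) nor siQKI against siRBFOX2 (0.20 ± 0.07, adjusted p = 0.0505) passed.

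The transcription factors moved modestly. ATF4, the central factor of the integrated stress response, had 139296, 152077 and 137099 normalized counts in siCtrl, 162026, 159504 and 153826 in siQKI and 183493, 157369 and 187497 in siRBFOX2 libraries. All knockdown libraries lay above all control libraries. The rise passed with siRBFOX2 (0.30 ± 0.06, adjusted p = 0.00136) and not with siQKI (0.15 ± 0.06, adjusted p = 0.0614). With siQKI it passed in 5 of 17 alternatives (with upper-quartile rescaling, with only the groups compared, and without siCtrl replicate 2 or siRBFOX2 replicates 2 or 3), with adjusted p from 0.00985 to 0.215. The difference between the knockdowns did not pass (adjusted p = 0.0887). DDIT3, the pro-apoptotic factor CHOP induced by ATF4, had 9149, 11548 and 10227 in siCtrl, 11620, 10742 and 11599 in siQKI and 13076, 11810 and 14199 in siRBFOX2 libraries. All siRBFOX2 libraries lay above all controls (0.34 ± 0.08, adjusted p = 0.00472), a call lost without the mean-variance trend (adjusted p = 0.0640). The siQKI range overlapped that of the controls (adjusted p = 0.201), and the difference between the knockdowns did not pass (adjusted p = 0.0900). DDIT3 overlaps the row of methionyl-tRNA synthetase 1, whose level was 837% of that of DDIT3, and reads of that gene may be counted here. That overlapping row did not pass in either knockdown (0.11 ± 0.04, adjusted p = 0.0604 with siRBFOX2).

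XBP1, the factor that IRE1 activates, had 44309, 45490 and 44570 normalized counts in siCtrl, 47082, 45125 and 45930 in siQKI and 47075, 47245 and 48902 in siRBFOX2 libraries. Its differences were 0.04 ± 0.04 (adjusted p = 0.451) and 0.09 ± 0.04 (adjusted p = 0.0737), and the deposited totals do not separate the spliced from the unspliced form. ATF5, a stress factor related to ATF4, showed the largest change of the 6 in both knockdowns. It had 48162, 45723 and 44151 in siCtrl, 70758, 65233 and 62751 in siQKI and 68798, 65063 and 65265 in siRBFOX2 libraries, with every knockdown library above every control. Log2 fold changes were 0.52 ± 0.05 (adjusted p = 7.94e-07) and 0.53 ± 0.05 (adjusted p = 1.49e-06), and both passed under all 17 alternatives. The row of NUP62 and IL4I1, which overlaps ATF5 at 23.3% of its level, moved the other way (-0.41 ± 0.05 and -0.29 ± 0.05). CREB3L2, an ER-anchored factor processed like ATF6, rose with siQKI (0.29 ± 0.07, adjusted p = 0.00365), and the difference between the knockdowns passed (0.28 ± 0.07, adjusted p = 0.00727). That difference was lost without the mean-variance trend (adjusted p = 0.0523).

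CEBPB, a partner of ATF4 at its response elements, had 22052, 26918 and 26211 normalized counts in siCtrl, 20737, 22302 and 21007 in siQKI and 23319, 21141 and 23563 in siRBFOX2 libraries. The siCtrl and siQKI ranges overlapped through siCtrl replicate 1. The fall with siQKI (-0.23 ± 0.07, adjusted p = 0.0162) was lost in 6 of 17 alternatives, among them those without siCtrl replicates 2 or 3 and without siQKI replicates 1 or 3, with adjusted p up to 0.107.

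PPP1R15A (GADD34) and PPP1R15B (CReP) direct a phosphatase to eIF2α and so reverse the integrated stress response. Both fell in both knockdowns, PPP1R15A with log2 fold changes of -0.31 ± 0.07 (adjusted p = 0.00377) and -0.37 ± 0.07 (adjusted p = 0.00145), and PPP1R15B with -0.11 ± 0.04 (adjusted p = 0.0410) and -0.28 ± 0.04 (adjusted p = 1.02e-04). The siQKI call of PPP1R15A was lost without the mean-variance trend (adjusted p = 0.0598). The fall of PPP1R15B with siQKI held in 7 of 17 alternatives and was lost without any of the 3 siCtrl libraries, without siQKI replicates 1 or 3 and without siRBFOX2 replicate 1, with adjusted p up to 0.372. PPP1R15A overlaps the row of FTL, ferritin light chain, which stood at 2335% of its level and rose in both knockdowns (0.31 ± 0.06 and 0.49 ± 0.06). Reads of FTL may be counted in the PPP1R15A row, so the change of PPP1R15A itself is uncertain.

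The amino acid and metabolic targets of ATF4 rose together with siRBFOX2 and split with siQKI. With siRBFOX2, 9 of 11 were higher, 0 lower, and the median log2 fold change was 0.40. With siQKI, 6 were higher (ASNS, PHGDH, PSPH, SLC7A5, SLC3A2 and VLDLR), 2 lower (PSAT1 and SESN2), and the median was 0.16. Over the alternatives, 5 to 9 were higher with siRBFOX2, the lowest count coming without the mean-variance trend. For comparison, abundant genes (mean of 500 or more) were called higher in 19.7% and lower in 27.5% of cases with siRBFOX2. With siQKI these background shares were 23.1% and 32.6%. The median log2 fold change over every gene tested was 0.01 with siRBFOX2 and 0.03 with siQKI.

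The serine synthesis enzymes, which convert a glycolytic intermediate to serine, showed the widest contrast. PHGDH (chr1:119711875-119744215, hg38), the first enzyme of that pathway, had 12371, 14818 and 12754 normalized counts in siCtrl, 17282, 17887 and 17955 in siQKI and 27332, 25533 and 24677 in siRBFOX2 libraries. The 3 groups did not overlap and were ordered siCtrl, siQKI, siRBFOX2. PHGDH rose 1.95-fold with siRBFOX2 (0.96 ± 0.06, adjusted p = 4.85e-08) and 1.33-fold with siQKI (0.42 ± 0.06, adjusted p = 8.27e-05), and the knockdowns differed (-0.54 ± 0.06, adjusted p = 1.38e-05).

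PSAT1 (chr9:78292372-78330093, hg38), the second enzyme, was named after its values were seen. It had 21324, 25953 and 24319 in siCtrl, 16140, 16660 and 16482 in siQKI and 34519, 31168 and 35257 in siRBFOX2 libraries. Every siQKI library lay below and every siRBFOX2 library above the controls. The fold changes were -0.53 ± 0.06 (adjusted p = 1.12e-05) and 0.50 ± 0.06 (adjusted p = 3.85e-05), and the knockdowns differed 2.05-fold (-1.03 ± 0.06, adjusted p = 4.16e-08), the largest direct difference among the 40 genes. PSPH, the last enzyme, rose by nearly equal amounts (0.41 ± 0.06 and 0.42 ± 0.06), and its direct difference was -0.01 ± 0.06. PSAT1 was thus lower where PHGDH and PSPH were higher in siQKI libraries, and these calls held in all 17 alternatives.

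ASNS, asparagine synthetase, had 15059, 16498 and 16349 normalized counts in siCtrl, 17003, 18324 and 18014 in siQKI and 23579, 21309 and 23741 in siRBFOX2 libraries. The groups again did not overlap and were ordered as for PHGDH. The rise was 0.52 ± 0.05 with siRBFOX2 (adjusted p = 4.73e-06) and 0.16 ± 0.05 with siQKI (adjusted p = 0.0353). The latter was lost without the mean-variance trend, without siCtrl replicate 1 and without siQKI replicates 2 or 3. CHAC1, a glutathione-degrading enzyme that responds strongly to ATF4 and CHOP, was also chosen after its values were seen. It had 5406, 7097 and 6311 in siCtrl, 5947, 6481 and 6502 in siQKI and 9305, 8216 and 9139 in siRBFOX2 libraries. Only the siRBFOX2 libraries left the control range, by 0.51 ± 0.08 (adjusted p = 3.47e-04), and siQKI differed from siRBFOX2 by -0.49 ± 0.08 (adjusted p = 5.28e-04).

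SESN2, a regulator of the growth kinase mTORC1, had 7087, 8109 and 7727 normalized counts in siCtrl, 5747, 6382 and 5709 in siQKI and 9671, 8255 and 9537 in siRBFOX2 libraries. It moved in opposite directions like PSAT1, by -0.36 ± 0.07 (adjusted p = 0.00107) and 0.26 ± 0.07 (adjusted p = 0.0142), with a direct difference of -0.62 ± 0.07 (adjusted p = 1.78e-05). The rise with siRBFOX2 was lost without the mean-variance trend, without siCtrl replicate 1 and without siRBFOX2 replicates 1 or 3. TRIB3, a pseudokinase that restrains ATF4, rose with siRBFOX2 by 0.33 ± 0.08 (adjusted p = 0.00624) and DDIT4, another mTORC1 inhibitor, by 0.36 ± 0.08 (adjusted p = 0.00274). Both were lower in siQKI than in siRBFOX2 libraries (-0.51 ± 0.08 and -0.32 ± 0.08, adjusted p = 2.37e-04 and 0.00772). Without the mean-variance trend the siRBFOX2 rises of TRIB3 and DDIT4 were lost (adjusted p = 0.0577 and 0.0529), as was the direct difference of DDIT4 (adjusted p = 0.0893).

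The amino acid transporter pair passed with siQKI and not with siRBFOX2. SLC7A5 (LAT1), the carrier of large neutral amino acids, rose with siQKI by 0.32 ± 0.03 (adjusted p = 4.72e-06) and was higher in siQKI than in siRBFOX2 libraries (0.27 ± 0.03, adjusted p = 5.58e-05). SLC3A2, its heavy chain partner, rose with siQKI by 0.28 ± 0.08 (adjusted p = 0.0145), a call lost without the mean-variance trend and without siCtrl replicate 1. Its value was 0.13 ± 0.08 with siRBFOX2, and the direct difference did not pass (0.14 ± 0.08, adjusted p = 0.240). SLC3A2 overlaps the row of ATL3, which stood at 35.5% of its level and fell with siQKI (-0.39 ± 0.05). VLDLR, a lipoprotein receptor induced by ATF4, had 793, 816 and 752 normalized counts in siCtrl, 1067, 1167 and 1316 in siQKI and 865, 1092 and 1189 in siRBFOX2 libraries. All knockdown libraries lay above the controls, with 0.58 ± 0.13 (adjusted p = 0.00293) and 0.40 ± 0.13 (adjusted p = 0.0348). The second call was lost in 7 of 17 alternatives, 5 of which left out a single library (any of the 3 siCtrl libraries, and siRBFOX2 replicates 2 or 3). VLDLR overlaps the row of VLDLR-AS1, which stood at 14.7% of its level. That row did not pass with siQKI (0.88 ± 0.57, adjusted p = 0.274) or siRBFOX2 (0.15 ± 0.57, adjusted p = 0.889).

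**Figure D2:**
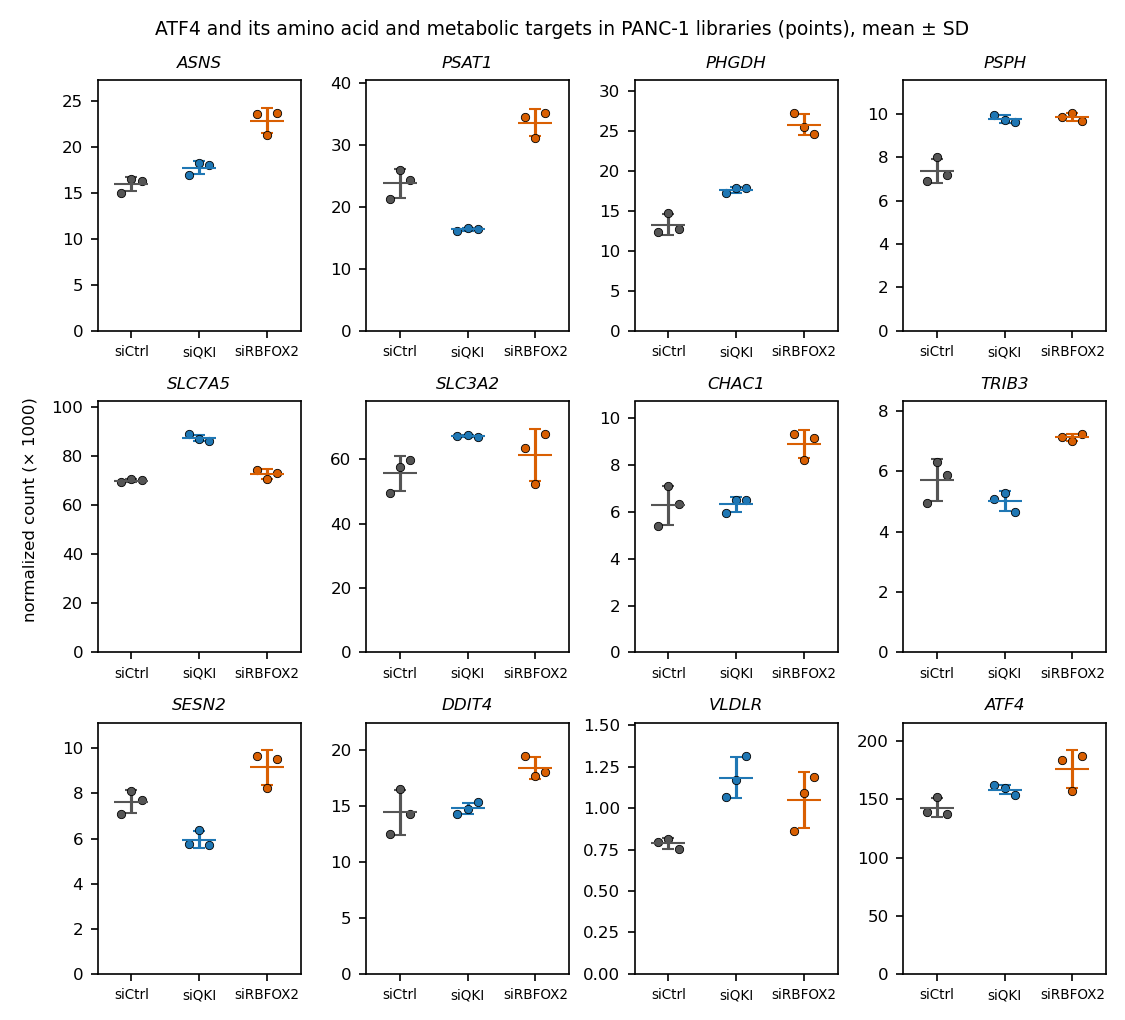
Normalized counts (axis in units of 1000) of the 11 ATF4 targets and ATF4 in each PANC-1 library (points) with mean and SD per group, n = 3. PSAT1 and SESN2 lie below the controls with siQKI and above them with siRBFOX2, and the siRBFOX2 libraries of PHGDH lie between 24677 and 27332 normalized counts.

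Of 13 ER chaperones and folding enzymes, 7 were higher with siQKI (HSPA5, HSP90B1, CALR, CANX, PDIA3, PDIA4 and DNAJB9), 0 lower and 6 did not pass. These 53.8% called stood beside 33.0% of all genes and 55.7% of genes with a mean of at least 500, of which 23.1% were higher. The log2 fold changes ran from 0.01 to 0.36 over all 13, with a median of 0.14. With siRBFOX2, 3 were higher (CALR, PDIA3 and PDIA4) and 2 lower (HSP90B1 and SDF2L1), with a median of 0.05. The count with siQKI ran from 4, without the mean-variance trend, to 10, with upper-quartile rescaling, and no alternative called a chaperone lower. Without that trend HSPA5, CANX and DNAJB9 lost their siQKI calls (adjusted p = 0.0527, 0.0680 and 0.0657). HSPA5, HSP90B1, CALR and PDIA3 are given by library because of their values.

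HSPA5 (BiP, chr9:125234853-125241348, hg38), the main ER Hsp70 chaperone and a standard marker of the unfolded protein response, had 156286, 176225 and 188195 normalized counts in siCtrl, 198931, 227226 and 215320 in siQKI and 181902, 173979 and 201033 in siRBFOX2 libraries. The siQKI libraries lay above all controls (0.30 ± 0.07, adjusted p = 0.00255). The siQKI and siRBFOX2 ranges overlapped, and their difference (0.20 ± 0.07, adjusted p = 0.0419) was lost in 8 of 17 alternatives, among them those without siCtrl replicate 2, siQKI replicates 2 or 3, or siRBFOX2 replicates 1 or 2. HSP90B1 (GRP94, chr12:103930382-103947927), the ER member of the Hsp90 family, had 255042, 255653 and 265816 in siCtrl, 314128, 323694 and 315378 in siQKI and 225485, 229159 and 239528 in siRBFOX2 libraries. The groups did not overlap and the knockdowns lay on opposite sides of the controls, at 0.30 ± 0.04 (adjusted p = 1.57e-05) and -0.16 ± 0.04 (adjusted p = 0.00387), a direct difference of 0.46 ± 0.04 (adjusted p = 5.02e-07). These HSP90B1 calls held in all 17 alternatives.

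CALR, the soluble lectin chaperone calreticulin, had 310770, 311636 and 327247 normalized counts in siCtrl, 375437, 377894 and 383778 in siQKI and 352413, 353702 and 363003 in siRBFOX2 libraries. It rose in both, by 0.26 ± 0.04 (adjusted p = 3.94e-05) and 0.17 ± 0.04 (adjusted p = 0.00205), with no library of a knockdown inside the control range. PDIA3 (ERp57), the disulfide isomerase that works with calreticulin and calnexin, had 147906, 147380 and 154850 in siCtrl, 193067, 192033 and 192639 in siQKI and 163472, 159520 and 168540 in siRBFOX2 libraries. The rise was larger with siQKI (0.36 ± 0.04, adjusted p = 1.70e-06) than with siRBFOX2 (0.13 ± 0.04, adjusted p = 0.0151), with a direct difference of 0.23 ± 0.04 (adjusted p = 2.10e-04). The call with siRBFOX2 was lost without the mean-variance trend, without siCtrl replicate 2 and without siRBFOX2 replicate 3 (adjusted p up to 0.0782). A processed copy, PDIA3P1, has its own row with a mean of 6670.2 in siCtrl libraries, so a small part of the reads may be shared.

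PDIA4 (ERp72), another disulfide isomerase, had 116896, 118606 and 123199 normalized counts in siCtrl, 139161, 136105 and 135431 in siQKI and 135774, 131742 and 141974 in siRBFOX2 libraries. Both knockdowns lay above the controls by nearly equal amounts (0.20 ± 0.04 and 0.19 ± 0.04, adjusted p = 8.41e-04 and 0.00148). SDF2L1, a small ER protein that assists BiP, had 20377, 23116 and 22816 in siCtrl, 23666, 22060 and 23241 in siQKI and 20489, 18024 and 20396 in siRBFOX2 libraries. The control and siRBFOX2 ranges overlapped, and the call (-0.17 ± 0.06, adjusted p = 0.0438) was lost in 9 of 17 alternatives, among them those without siCtrl replicates 2 or 3, siQKI replicates 2 or 3, or siRBFOX2 replicate 2. DNAJB9 (ERdj4), a BiP cochaperone, rose with siQKI by 0.34 ± 0.08 (adjusted p = 0.00530), and the lectin chaperone CANX by 0.14 ± 0.04 (adjusted p = 0.0108). HYOU1, MANF, CRELD2, DNAJC3 and PDIA6, which include the nucleotide exchange factor of BiP (HYOU1) and secreted stress proteins (MANF and CRELD2), passed in neither knockdown. PDIA6 was close with siQKI (0.12 ± 0.04, adjusted p = 0.0501). Its siQKI libraries all lay above the controls, and it passed in 8 of 17 alternatives. Of the 7 genes with an ER stress response element in their window, HSPA5, HSP90B1, CALR and CANX rose with siQKI, and PDIA6, CRELD2 and XBP1 did not pass. The 3 genes with an ERSE-II also did not pass with siQKI.

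ER-associated degradation, which retrotranslocates misfolded proteins for the proteasome, showed opposite changes of its parts. EDEM1 (chr3:5187646-5219958, hg38), a lectin that routes misfolded glycoproteins to degradation, had 7006, 7543 and 7931 normalized counts in siCtrl, 5111, 5514 and 5189 in siQKI and 3423, 3091 and 3309 in siRBFOX2 libraries. The groups did not overlap, and EDEM1 had the largest change among the 40 genes, with a 2.29-fold fall with siRBFOX2 (-1.19 ± 0.06, adjusted p = 1.00e-08) and a 1.42-fold fall with siQKI (-0.51 ± 0.06, adjusted p = 2.21e-05). The direct difference was 0.69 ± 0.06 (adjusted p = 2.47e-06), and all 3 held in all 17 alternatives.

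SEL1L, the adaptor of the ubiquitin ligase HRD1, was given by library after its values were seen. It had 3374, 3590 and 3769 normalized counts in siCtrl, 5027, 5308 and 5289 in siQKI and 4560, 4966 and 4677 in siRBFOX2 libraries, all knockdown libraries lying above the controls. The rise was 0.54 ± 0.06 with siQKI (adjusted p = 8.96e-06) and 0.40 ± 0.06 with siRBFOX2 (adjusted p = 2.24e-04). SYVN1, the ligase HRD1 itself, had 14997, 15492 and 15194 in siCtrl, 14784, 15024 and 14857 in siQKI and 13212, 13161 and 12043 in siRBFOX2 libraries. It fell with siRBFOX2 (-0.25 ± 0.05, adjusted p = 8.10e-04), while MRPL49, whose row overlaps SYVN1 at 402% of its level, fell by 0.19 ± 0.05 on the same scale (adjusted p = 0.00665). HERPUD1, an ER membrane component of the same ligase complex, passed in neither knockdown. The rows of the adaptor SEL1L and its ligase SYVN1 thus differed in direction with siRBFOX2. Reads of MRPL49 may be counted in the SYVN1 row, so the direction of SYVN1 itself is uncertain.

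**Figure D3:**
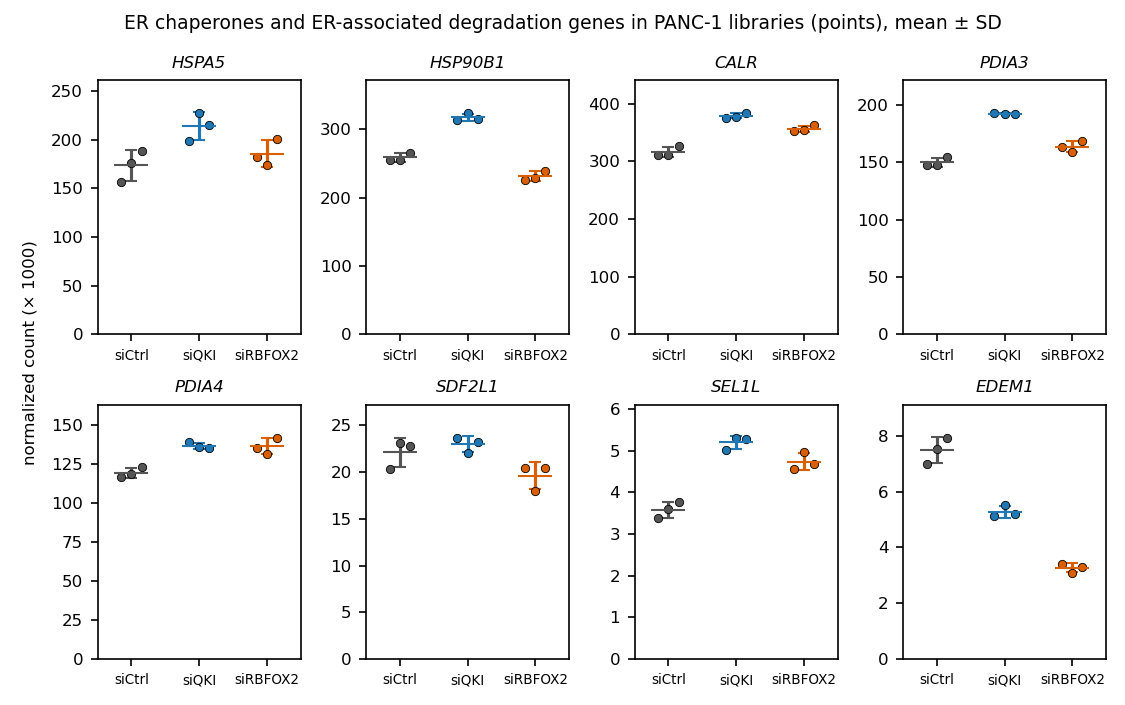
Normalized counts (axis in units of 1000) of 6 chaperones and folding enzymes, SEL1L and EDEM1 in each PANC-1 library (points) with mean and SD per group, n = 3. HSP90B1 lies above the controls with siQKI (314128 to 323694 normalized counts) and below them with siRBFOX2 (225485 to 239528), and EDEM1 falls from 7006 to 7931 in siCtrl to 3091 to 3423 in siRBFOX2 libraries.

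Other genes of the same pathways were read from lists of related function, most of whose genes are abundant, so that their counts stand beside the shares of genes with a mean of at least 500 (23.1% higher and 32.6% lower with siQKI, 19.7% and 27.5% with siRBFOX2, 18.4% and 21.2% in siQKI against siRBFOX2). The eIF2 and eIF2B subunits and remaining eIF2α kinases had 8 of 10 lower and 0 higher with siQKI (median -0.18) and 3 lower with siRBFOX2. With upper-quartile rescaling 5 were lower and 1 higher with siQKI. EIF2S3, the γ subunit of eIF2, had 38703 to 40835 normalized counts in siCtrl, 17163 to 18234 in siQKI and 33461 to 34469 in siRBFOX2 libraries. Its log2 fold change was -1.18 ± 0.04 with siQKI (adjusted p = 3.28e-11) and -0.22 ± 0.04 with siRBFOX2 (adjusted p = 7.11e-04). EIF2B2, a subunit of the exchange factor that recharges eIF2, fell by 0.59 ± 0.06 on the log2 scale with siQKI (adjusted p = 1.99e-06).

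Of 12 further ATF4 or CHOP targets tested, 8 were higher and 1 lower with siRBFOX2 (median 0.20), against 4 higher and 4 lower with siQKI (median 0.07), and 8 were lower in siQKI than in siRBFOX2 libraries. With siRBFOX2, 5 were higher and 0 lower without the mean-variance trend, and 9 and 1 with upper-quartile rescaling. The lower gene was GDF15, which fell with siQKI (-0.42 ± 0.07, adjusted p = 2.34e-04) and siRBFOX2 (-0.32 ± 0.07, adjusted p = 0.00258). STC2, a secreted glycoprotein, rose with siRBFOX2 (0.61 ± 0.06, adjusted p = 6.27e-06), and JDP2, a bZIP factor, did likewise (0.65 ± 0.07, adjusted p = 6.27e-06). TNFRSF10B, the death receptor DR5 that CHOP induces, fell with siQKI from 6750.2 to 7862 in siCtrl to 3026 to 3508 normalized counts (-1.14 ± 0.07, adjusted p = 1.34e-08) and did not pass with siRBFOX2. Its direct difference between the knockdowns was -1.02 ± 0.07 (adjusted p = 1.18e-07). Among 13 amino acid transporters and serine-glycine enzymes outside the 40, 5 were higher and 3 lower with siRBFOX2 and 3 higher and 6 lower with siQKI. SLC7A11, the cystine carrier, rose most with siRBFOX2 (0.93 ± 0.12, adjusted p = 3.81e-05). Of 11 aminoacyl-tRNA synthetases, 4 were higher and 1 lower with siRBFOX2 and 1 higher and 5 lower with siQKI, where upper-quartile rescaling gave 2 and 2.

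Of 15 further ER chaperones and oxidoreductases, 5 were higher and 3 lower with siQKI, with a median of -0.04, which upper-quartile rescaling turned to 0.02 (6 higher and 1 lower). ERP44, which retains partly folded proteins and ER oxidases in the early secretory pathway, rose in both knockdowns, from 3234 to 3945 normalized counts in siCtrl to 8940.4 to 10012 in siQKI and 8273 to 9014 in siRBFOX2 libraries (1.37 ± 0.07 and 1.26 ± 0.07, adjusted p = 2.90e-09 and 1.59e-08). ERO1B, a disulfide oxidase, rose with siQKI (0.65 ± 0.09, adjusted p = 3.83e-05), as did PDIA2, a pancreatic isomerase at low levels (1.47 ± 0.32, adjusted p = 0.00212), which also rose with siRBFOX2 (0.90 ± 0.32, adjusted p = 0.0484). In ER-associated degradation, EDEM3, a relative of EDEM1, rose with siQKI (0.68 ± 0.05, adjusted p = 7.61e-08), opposite to EDEM1, and 2 of 17 listed genes were higher and 6 lower, against 5 higher and 4 lower with upper-quartile rescaling. CREB3L1, a relative of CREB3L2, rose in both (0.75 ± 0.12 and 0.59 ± 0.12, adjusted p = 1.58e-04 and 0.00165).

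Lists for the next secretory step and for other compartments held more lower than higher calls, as did abundant genes as a whole. Of 12 COPII vesicle genes 8 were lower and 1 higher with siQKI, and 6 lower with siRBFOX2, and SEC23B had a log2 fold change of -0.59 ± 0.04 with siQKI (adjusted p = 7.41e-08). Of 16 translocon and signal peptide genes 6 were lower and 2 higher with siQKI. The cytosolic heat shock list had 9 of 12 lower and 2 higher with siQKI, and 7 lower with siRBFOX2. The mitochondrial chaperones and proteases had 8 of 10 lower with siQKI and 9 with siRBFOX2, 0 being higher in either. With upper-quartile rescaling, which turned the split of all genes to more higher than lower with siQKI, the lower and higher calls with siQKI were 5 and 1 for COPII genes, 4 and 2 for translocon genes, 6 and 2 for heat shock genes and 6 and 0 for mitochondrial genes. Among 8 membrane bZIP factors and proteases 3 were higher and 1 lower with siQKI.

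HPAF-II and PANC-1 siCtrl libraries were normalized by the authors in separate tables, so levels were rescaled to a total of 1000000 per library and compared without a test, as log2 ratios of means. Of the 40 genes, 10 differed at least 2-fold, 5 higher and 5 lower in HPAF-II, beside 52.4% of 24673 genes compared (27.2% higher and 25.2% lower) and 42.1% of genes with a mean of at least 500. Without rescaling 9 of the 40 differed at least 2-fold, 2 higher and 7 lower, so 2-fold ratios near that limit depend on the scaling. For 30 of the 40 genes no library of one line lay within the range of the other, 18 higher and 12 lower in HPAF-II, beside 63.7% of all genes. The median size of the log2 ratio was 0.61 over the 40 and 1.07 over all genes.

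ERN1 (chr17:64039142-64130819, hg38) had the highest HPAF-II to PANC-1 ratio of the 40 genes, with 11.9, 17.0 and 13.7 rescaled counts against 3.25, 3.72 and 4.40 in PANC-1 (3.74-fold, log2 ratio 1.90). XBP1, the substrate of IRE1, had 277, 291 and 323 against 131, 131 and 129 (2.28-fold). SYVN1, overlapped by the row of MRPL49 at 402% of its PANC-1 level, had 91.0, 90.5 and 76.0 against 44.3, 44.5 and 44.0 (1.94-fold). In all of these every HPAF-II library lay above every PANC-1 library. The integrated stress response was divided. ATF4 had 784, 832 and 1116 against 411, 437 and 397 (2.19-fold), ASNS had 126, 149.9 and 109 against 44.4, 47.4 and 47.4 (2.77-fold) and PHGDH had 82.7, 98.7 and 96.7 against 36.5, 42.6 and 36.9 (2.40-fold).

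In the other direction, ATF5 had 50.1, 38.6 and 52.4 rescaled counts in HPAF-II against 142, 131 and 128 in PANC-1 libraries (2.84-fold lower). CEBPB had 15.9, 19.4 and 42.1 against 65.1, 77.3 and 75.9 (2.82-fold lower), and HPAF-II replicate 3 lay well above the other libraries of its line. SDF2L1 had 21.5, 15.4 and 41.9 against 60.1, 66.4 and 66.1 (2.44-fold lower), with that same library highest. PDIA4 had 144, 134 and 167 against 345, 341 and 357 (2.35-fold lower), whereas HSP90B1 and PDIA3, chaperones of the same compartment, were 1.52-fold higher each. SESN2 had 9.57, 8.81 and 15.2 against 20.9, 23.3 and 22.4 (1.98-fold lower). VLDLR was listed at 0 in HPAF-II replicates 1 and 2 and at 0.0258 rescaled counts in replicate 3, against 2.34, 2.34 and 2.18 in PANC-1.

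The sensors ATF6, EIF2AK4 and EIF2AK3 differed less, at log2 ratios of 0.46, 0.65 and -0.29, and DDIT3 was at 19.4, 18.9 and 18.8 rescaled counts in HPAF-II against 27.0, 33.2 and 29.6 (1.57-fold lower). HSPA5 was near equal, with 474, 523 and 424 against 461, 506 and 545 rescaled counts. Among the genes that opposed each other in the knockdowns, PSAT1 overlapped between the lines (71.6, 90.0 and 97.9 against 62.9, 74.5 and 70.4). EDEM1 was 1.82-fold lower in HPAF-II. QKI itself was 5.13-fold lower in HPAF-II than in PANC-1 libraries (11.3 to 16.5 against 70.5 to 76.5 rescaled counts), and RBFOX2 1.46-fold lower.

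**Figure D4:**
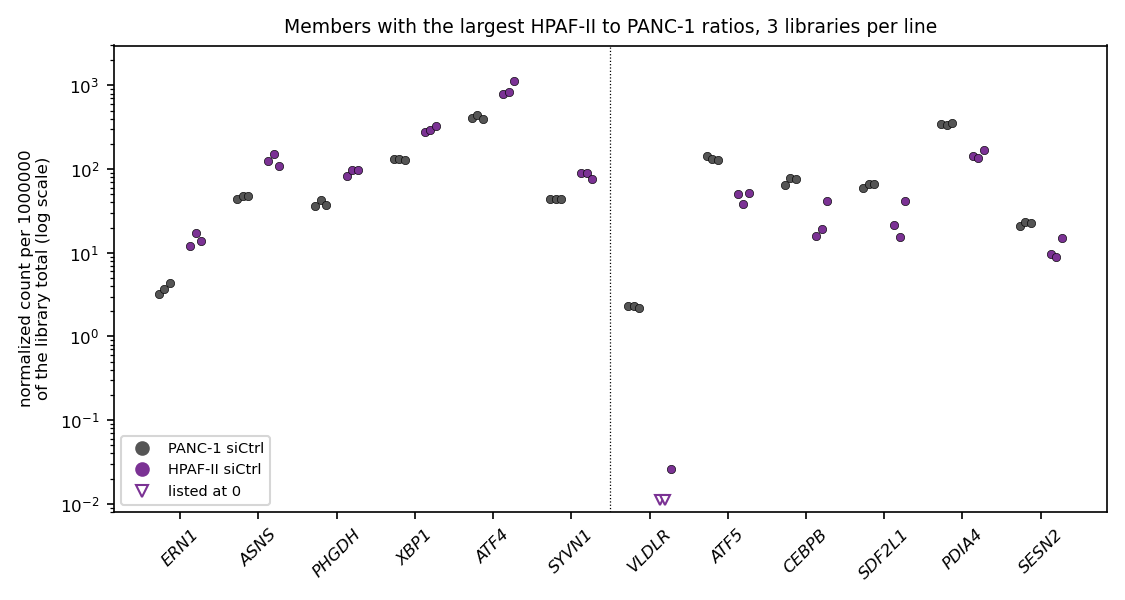
Normalized counts per 1000000 of the library total, on a log axis, of the 6 genes with the highest and the 6 with the lowest HPAF-II to PANC-1 ratio, with 3 siCtrl libraries per line as points and values listed at 0 as open triangles. ERN1 lies at 11.9 to 17.0 in HPAF-II, above 3.25 to 4.40 in PANC-1, and VLDLR is listed at 0 in 2 HPAF-II libraries.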

How the data were processed

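PANC-1 (siCtrl, siQKI, siRBFOX2) and HPAF-II (siCtrl) polyA libraries were sequenced as 150 bp paired-end reads. The submitters' processing notes name FastQC, Picard, SAMtools, STAR 2.7.5a, DESeq2 and hg38; the study's software list also has featureCounts, and another STAR version, without naming the libraries each was used on. Strand and handling of read pairs are not given in the sources used here. For each line the authors deposited a table of signal values over 48114 FAST DB genes, namely counts scaled by the DESeq2 size factor of the library (0.877 to 1.15 for PANC-1 libraries, 0.810 to 1.09 for those of HPAF-II, read from the steps of the values). They are called normalized counts. Every value was a whole multiple of 1 step within 0.01, but 82.1% to 84.8% of values up to 30 steps could be divided by 3. A step therefore does not stand for a read, no count test was used and depth in reads is unknown. Precision was taken from the replicates.

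The comparisons among PANC-1 groups used limma 3.58.1 (R 4.3.3; lmFit, contrasts.fit, eBayes with trend). Values entered as log2(normalized count + 1), all 9 libraries sharing a fit, over 22544 genes with a mean of at least 10, with Benjamini-Hochberg adjustment at 0.05. The procedure was tested on simulated data. Fold changes are on the log2(value + 1) scale, which understates changes of low genes, and ± in fold changes is the standard error. HPAF-II and PANC-1 siCtrl libraries were rescaled to 1000000 and compared as log2 ratios of means + 0.01, without a test. Promoter windows came from RefSeq (GRCh38.p14). Rows overlapping a gene at 10% or more of its level touched 6 of the 40 genes. They are named beside those genes, whose values may hold their reads and are uncertain to that extent.

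The 40 genes and all lists were chosen with earlier results of these data known. Values in every library are given for genes past the threshold with at least 1.5-fold in a knockdown, the 4 sensors, ATF4, XBP1, DDIT3 and the 6 largest ratios between the lines each way; others so shown were chosen after their values were seen. Of the further lists, genes were named where they passed with at least 1.5-fold, and GDF15 as the only lower call of its list with siRBFOX2. The alternatives were pseudocounts of 0.1 and 10, other filters, upper-quartile rescaling, a replicate block, no trend, only the groups compared, a threshold of 0.01 and leaving out each library. Tallies over 17 alternatives cover the planned fits at 0.05, without the 0.01 threshold. Columns of per-sample values that were not used numbered 0.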

Additional observations from a re-analysis of the deposited data

How the results depend on the processing

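Alternative values of single genes in the PANC-1 comparisons numbered 1577 (the 17 planned fits, the 0.01 threshold and a minimum mean of 500 added after seeing the data). Of these, 1455 kept their direction and side of the threshold, 101 lost the call, 13 gained one and 8 changed sign, all 8 in genes not called. The values cover all called genes. Of genes not called, only those given by library were covered, and only against siCtrl. Gains of the others are outside the 13, such as PDIA6, which passed with siQKI in 8 of 17 alternatives. The sign changes with upper-quartile rescaling were ERN1 with siQKI, at 0.06, and SYVN1 with siQKI, at 0.03, and leaving out each replicate gave -0.12 to 0.11 for ERN1 and -0.09 to 0.11 for CHAC1 with siQKI. Without the mean-variance trend, 15 of the 40 genes were called with siQKI and 13 in siQKI against siRBFOX2. At a threshold of 0.01, 3854 of all genes were called with siRBFOX2 and 3105 in siQKI against siRBFOX2. Between the lines, 22 of the 40 genes passed 1.5-fold, and 5700 of all genes with a mean of at least 500 (added after seeing the data) passed 2-fold. Leaving out each library gave 20 to 26 of the 40 called with siQKI, 19 to 23 with siRBFOX2, 17 to 22 between the knockdowns and 10 to 12 at least 2-fold apart between the lines. Without the 6 genes that overlap another row (added after seeing the data), 20, 17 and 19 were called.

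The labels do not say whether replicate numbers shared by the PANC-1 groups mark paired libraries. Deviations of same-numbered libraries had correlations of -0.032 to 0.023. No shared deviation was thus seen, which cannot show whether these libraries were prepared together. With a replicate block, 24, 23 and 20 of the 40 genes and 7336, 5891 and 4758 of all genes were called. HPAF-II values taken without rescaling moved the median log2 ratio of all genes by -0.27, and the 40 genes then split as 2 higher and 7 lower. Depth in reads is unknown, and the standard error of log2 fold changes, with a median of 0.14 over all genes and 0.06 over the 40, sets what the PANC-1 comparisons could detect. Total transcript levels were measured, and no value bears on protein, eIF2α phosphorylation or XBP1 splicing.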

Other observations

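Some pathway genes outside the 40 that changed in the knockdowns also differed between the lines, given here as normalized counts rescaled to 1000000 per library, without a test. STC2 had 16.9 to 18.2 in PANC-1 siCtrl libraries and was listed at 0 in all HPAF-II libraries. ERO1B had 6.52 to 7.80 in PANC-1 and did not exceed 0.108 in HPAF-II. SLC7A11, the cystine carrier, was higher in HPAF-II, at 30.4 to 37.2 against 4.72 to 5.43. ERP44 had 9.29 to 11.6 against 40.6 to 43.3, EDEM3 had 17.1 to 17.4 against 44.2 to 57.2, and TNFRSF10B had 19.4 to 22.8 against 49.8 to 57.8, each with every HPAF-II library above every PANC-1 library. EIF2S3 had 111 to 118 against 155 to 197.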
